A study of Mus musculus with 8 samples.

Results

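Laminin chains, nidogens, integrin chains and the proteins that link basement membranes to cells were described over 8 arrays of mouse fetal gonads. They were chosen by gene symbol, with earlier results of these data known. Taken were the laminin chain symbols Lama, Lamb and Lamc with a number, Nid1, Nid2, Hspg2, Agrn, Dag1, Fn1 and Npnt. Symbols that start with Itga or Itgb followed by a digit or by E, L, M, V or X were taken as well. The rule took 103 of 45037 probe sets, which belong to 46 of 18193 genes. Of the 46 genes, 41 are structural chains, linkers and receptor chains, and 5 (Itgb1bp1, Itgb1bp2, Itgb3bp, Itgb2l and Itgbl1) carry an integrin-like symbol without being among the integrin chains listed for this work.

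All embryos were at embryonic day 13 (E13) and carried the strain label C57BL6/J-Tg92. The 4 groups held 2 arrays each. XX pre-granulosa cells (about 30000 per sample) and XY Sertoli cells (about 22000 per sample), the supporting cells that enclose the germ cells, were collected by sorting for EGFP, and whole ovaries and whole testes were pools of 4 gonads. The promoter that drives EGFP is not given in the sources used here, and the sort could hold other EGFP-positive cells. Whether the replicates are biological is not stated in the labels, so p-values measure the spread between these samples, which may be technical.

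A basement membrane is a thin sheet of matrix on which epithelial cells rest. Its laminin sheet is built of heterotrimers of an alpha, a beta and a gamma chain, and its collagen IV sheet is tied to the laminins by nidogens and by the proteoglycans perlecan and agrin. Cells hold the sheet with integrins, each a pair of an alpha and a beta chain, and with dystroglycan. In the fetal testis the Sertoli cells assemble into cords that a basement membrane separates from the interstitium, while at the same age the supporting cells of the ovary lie in less sharply bounded clusters.

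Promoter sequence was examined for the integrin chains Itga4 and Itgb8, the members called higher in XY samples in both sorted cells and gonads, and for the integrin ligand Npnt, the member called lower in Sertoli cells. The RefSeq promoter table (assembly GRCm38.p6) held 31 of the 46 genes. Shown for each are the 250 bases before the transcription start, in the direction of transcription. Capitals mark each match to the motifs searched on both strands. For SOX factors AACAAT and ACAAAG were searched, for GATA factors the letters AGATAA and TGATAA, for NR5A1 the letters AAGGTCA, for forkhead factors TAAACA, for the GC box GGGCGG, for the CCAAT box those letters themselves, and for the TATA box the letters TATAAA. No motif lies inside another.
Itga4: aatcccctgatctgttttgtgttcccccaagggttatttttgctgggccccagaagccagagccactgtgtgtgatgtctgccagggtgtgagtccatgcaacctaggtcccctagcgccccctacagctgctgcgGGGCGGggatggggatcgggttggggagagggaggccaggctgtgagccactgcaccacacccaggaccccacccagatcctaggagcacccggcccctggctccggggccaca
Itgb8: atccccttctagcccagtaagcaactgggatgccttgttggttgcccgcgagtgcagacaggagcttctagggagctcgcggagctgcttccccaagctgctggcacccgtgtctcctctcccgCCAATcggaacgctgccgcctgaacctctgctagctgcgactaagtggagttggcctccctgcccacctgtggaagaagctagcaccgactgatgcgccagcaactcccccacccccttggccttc
Npnt: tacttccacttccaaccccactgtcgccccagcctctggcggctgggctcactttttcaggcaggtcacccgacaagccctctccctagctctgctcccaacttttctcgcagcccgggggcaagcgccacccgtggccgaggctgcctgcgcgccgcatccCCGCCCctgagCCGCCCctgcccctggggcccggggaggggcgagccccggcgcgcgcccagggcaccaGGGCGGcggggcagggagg
The Itga4 window (chr2:79255176-79255425, plus strand) held 1 GC box. The Itgb8 window (chr12:119238277-119238526, minus strand) held 1 CCAAT box. The Npnt window (chr3:132950292-132950541, minus strand, at the more upstream of 2 starts) held 3 GC boxes, and its GC content of 74.0% and 21 CpG compare with 64.0% and 6 CpG for Itga4 and 62.4% and 12 CpG for Itgb8. The SOX, GATA, NR5A1, forkhead and TATA letters were found in none of the 3 windows. Over 32851 windows of the same length, 24.0% held a SOX match, 16.6% a GATA match, 4.1% an NR5A1 match, 12% a forkhead match, 32.7% a GC box, 33.8% a CCAAT box and 12.4% a TATA box, and the median window had 52.4% GC and 6 CpG. A match is a description of these letters, not a binding site.

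Values are log2 array signals as deposited, and a gene is read from the brightest of its probe sets, by their means over the 8 arrays. Array values are given in the order of replicates 1 and 2 of each group. Differences are in log2 units with the standard error of the limma model (1 mean per group, n = 2 arrays per group), and a gene is called at a Benjamini-Hochberg adjusted p of 0.01 over all 45037 probe sets. The replicate standard deviation (root mean square over probe sets) was 0.531 in pre-granulosa cells, 0.428 in Sertoli cells, 0.299 in ovaries and 0.198 in testes. A background level of 4.78 was the highest value that 9 probe sets of Y-linked genes reached in XX arrays. Sertoli markers (5 measured) had a log2 summed level of 14.92 to 14.96 in Sertoli cells, 10.34 to 11.44 in pre-granulosa cells and 9.30 to 9.40 in ovaries. Sox9 of this list read 9.46 and 10.56 in pre-granulosa cells, 11.53 and 11.95 in Sertoli cells and 8.07 and 8.41 in ovaries. It was not called between the sorted groups (adjusted p = 0.0541). Cst9 and Ptgds also read higher in pre-granulosa cells than in ovaries, while Dhh overlapped and Amh read lower. The 6 pre-granulosa markers had 13.34 to 13.47 in pre-granulosa cells against 8.73 to 8.88 in Sertoli cells. The germ cell marker Ddx4 read 3.13 to 4.66 in sorted cells and 10.62 to 10.89 in gonads. Sycp3, a meiotic gene on the same list, read 8.18 and 7.47 in pre-granulosa cells, 5.71 and 5.31 in Sertoli cells and 8.72 in both ovary arrays, and was called between the sorted groups (adjusted p = 0.00739). The 3′ minus 5′ signal, which grows as RNA gets shorter, was 3.08 for actin and 3.68 for Gapdh in the first pre-granulosa array, the highest of the 8, and 1.70 and 1.24 in the second.

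In XY compared with XX supporting cells, 4 member genes were higher (Itga4, Itgb8, Lama4 and Dag1) and 1 was lower (Npnt). In testes compared with ovaries, 2 were higher (Itga4 and Itgb8) and 0 were lower. These are 10.9% and 4.35% of the 46 genes, a set that was chosen with earlier results of these data known. Over all genes, limma called 2.67% in the sorted cells (1.62% higher and 1.05% lower) and 0.352% in the gonads (0.236% higher and 0.115% lower). The median difference of the 46 genes was 0.18 in sorted cells and -0.01 in gonads, beside 0.04 and -0.04 over all genes. The arrays of the groups did not overlap for 26 of the 46 genes in sorted cells (43.3% of all genes) and for 24 in gonads (55.2% of all genes). Of the 46 genes, 27 had the same sign in both comparisons, and the share of all genes that did so is not given. The difference between the comparisons was called by limma for 0 of 46 (0% of all genes). For this difference 6 of 46 had an unadjusted p under 0.05, about the same share as over all genes (13%).

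**Figure D1:**
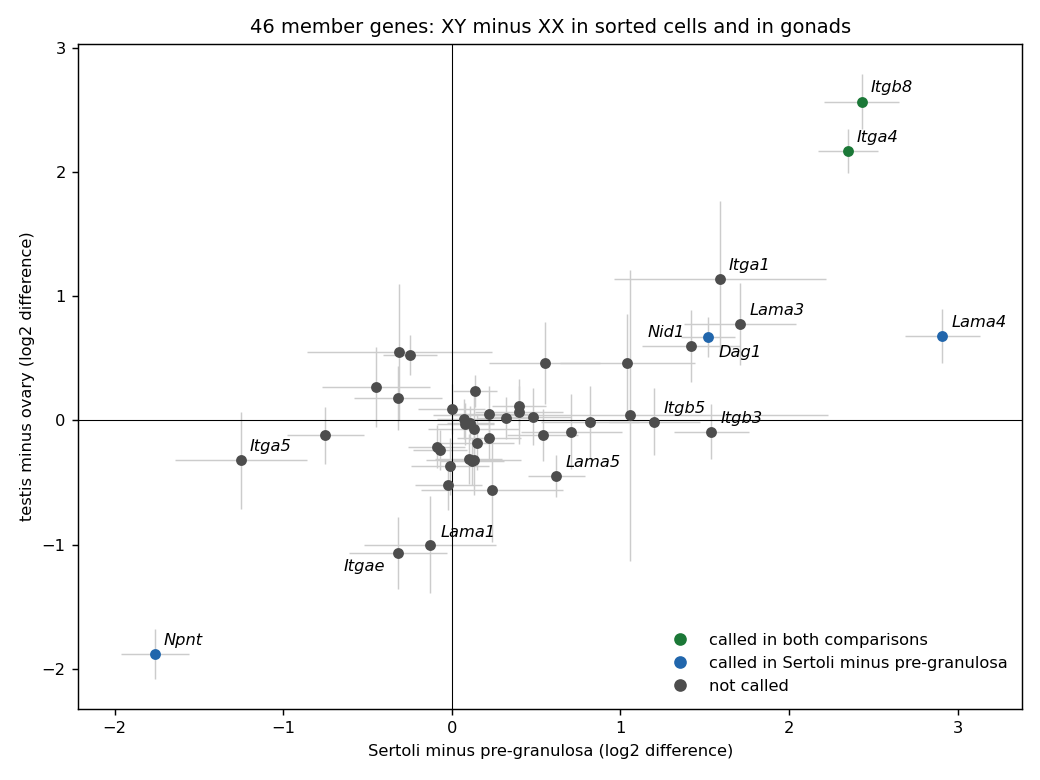
Each point is 1 of the 46 genes, with the XY minus XX difference (log2) in sorted supporting cells on the horizontal axis, that in whole gonads on the vertical axis, and model standard errors as bars. Itga4 and Itgb8 stand above 2 on both axes, Npnt stands below -1.7 on both, and Lama4 reads 2.91 in sorted cells and 0.68 in gonads.

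Among the laminin alpha chains, which decide which receptors a laminin binds, Lama4 was higher in Sertoli cells. Lama4 is the alpha chain of laminins known from vessel walls and mesenchymal tissue. It read 7.51 and 6.90 in pre-granulosa cells, 10.12 and 10.12 in Sertoli cells, 8.45 and 8.63 in ovaries and 9.15 and 9.30 in testes. Both Sertoli arrays lay above all other arrays, and both pre-granulosa arrays below all others. The difference was 2.91 ± 0.22 in sorted cells (7.52-fold, adjusted p = 0.00228) and 0.68 ± 0.22 in gonads (adjusted p = 0.385). The difference between these differences, 2.23 ± 0.32, did not pass the threshold (adjusted p = 0.0637). A dimmer Lama4 probe set, which read from 3.90 to 4.66, differed by 0.35 ± 0.26 in sorted cells (adjusted p = 0.556).

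Markers of vessels were also read. The log2 summed level of 8 endothelial markers, all measured, was 8.18 and 9.18 in pre-granulosa cells and 9.21 and 9.42 in Sertoli cells. It was 11.10 and 11.04 in ovaries and 10.96 and 11.14 in testes. Of these 8, 1 was called higher in Sertoli cells (Robo4, an endothelial guidance receptor, at 4.36 and 4.22, under background, against 6.78 and 7.53, a difference of at least 2.37). Cdh5, the endothelial cadherin, read 5.06 and 4.69 against 5.04 and 5.86. The part of such cells in the Lama4 difference was not tested.

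The other alpha chains were not called in either comparison. Lama1, the alpha chain of the classical embryonic laminin, read 9.33 and 8.08 in pre-granulosa cells, 8.71 and 8.45 in Sertoli cells, 8.99 and 8.94 in ovaries and 7.84 and 8.08 in testes. Its sorted-cell groups overlapped (-0.13 ± 0.39, adjusted p = 0.924), and both testis arrays lay below both ovary arrays (adjusted p = 0.499). Lama5, an alpha chain of many epithelia, read 7.39 and 6.99 in pre-granulosa cells, 7.86 and 7.75 in Sertoli cells, 7.69 and 7.72 in ovaries and 7.24 and 7.27 in testes. Its groups did not overlap in either comparison and lay in opposite order, at 0.62 ± 0.17 (adjusted p = 0.115) and -0.45 ± 0.17 (adjusted p = 0.493). Lama2, the alpha chain of muscle and nerve laminins, read 7.74 and 7.01 in pre-granulosa cells, 6.68 and 7.18 in Sertoli cells, 7.46 and 7.19 in ovaries and 7.82 and 7.36 in testes, with overlap in both comparisons. Lama3, known from the anchoring laminin of skin, was 1.71 ± 0.33 higher in Sertoli arrays (6.73 and 7.58 against 5.23 and 5.67) without passing the threshold (adjusted p = 0.0388). Its other probe set read 0.27 in sorted cells.

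The beta and gamma chains, which complete the trimers, gave 0 calls of 5 with limma in both comparisons. An unadjusted p under 0.05 was found for 1 of 5 in sorted cells and 0 of 5 in gonads, against 22.4% and 11.5% of all genes. The same shares stand beside such counts of the other lists in these comparisons. Lamb1, the common embryonic beta chain, read 11.01 and 10.15 in pre-granulosa cells, 11.40 and 11.39 in Sertoli cells, 11.26 and 11.35 in ovaries and 11.12 and 11.47 in testes. Both Sertoli arrays lay above both pre-granulosa arrays (0.82 ± 0.29, not called), but its 4 probe sets ran from -0.71 to 0.82. Lamc1, the gamma chain of most laminins, read 7.45 and 9.23 in pre-granulosa cells, 8.03 and 8.03 in Sertoli cells, 8.87 and 9.21 in ovaries and 9.86 and 9.33 in testes. Its pre-granulosa arrays spanned the Sertoli arrays (-0.31 ± 0.55, adjusted p = 0.849). Replicates also lay apart in the pre-granulosa group for Lamb2, the beta chain of synaptic and kidney laminins, at 9.73 and 8.37 beside 9.23 and 9.35 in Sertoli cells, 8.52 and 8.53 in ovaries and 7.83 and 8.09 in testes. Lamb3 (5.04 to 6.14 over the 8 arrays) and Lamc3 (5.80 to 6.65) varied little.

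Of the 7 nidogens and linkers, Dag1 was higher and Npnt lower in Sertoli cells, and 0 of 7 were called by limma between gonads (2 of 7 at an unadjusted p under 0.05). Of all genes, 1.62% were called higher and 1.05% lower in Sertoli cells, and 0.352% were called between gonads. Dag1 encodes dystroglycan, the receptor that binds laminin, perlecan and agrin through its sugar chains. It read 9.82 and 9.81 in pre-granulosa cells, 11.17 and 11.50 in Sertoli cells, 10.32 and 10.47 in ovaries and 11.09 and 11.04 in testes. The XY arrays lay above the XX arrays in both kinds of sample, by 1.52 ± 0.16 in sorted cells (2.86-fold, adjusted p = 0.00633) and by 0.67 ± 0.16 in gonads (adjusted p = 0.217). The other 3 Dag1 probe sets did not show the sorted-cell difference: they read between -0.23 and -0.15 there, with the lowest adjusted p at 0.722. With the mean of the probe sets in place of the brightest, the Dag1 difference was 0.24 and was not called.

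Npnt encodes nephronectin, a basement membrane protein that is a ligand of the integrin made of the chains of Itga8 and Itgb1. It read 8.28 and 8.18 in pre-granulosa cells, 6.29 and 6.66 in Sertoli cells, 8.93 and 8.78 in ovaries and 6.79 and 7.16 in testes. Every XX array lay above every XY array. Sertoli cells were lower by -1.76 ± 0.20 (3.38-fold lower, adjusted p = 0.00750), and testes read -1.88 ± 0.20 against ovaries without passing the threshold (adjusted p = 0.0200), although it did with a weight per group (adjusted p = 0.00409). The difference between the comparisons was 0.12 (adjusted p = 0.930). The sorted-cell difference was below 0 on all 5 Npnt probe sets, from -1.76 to -0.24, with a call on the brightest alone, and their mean gave -0.97 and no call. Of all 45037 probe sets, 1.81% were called in sorted cells (0.999% higher and 0.813% lower) and 0.215% in gonads (0.155% higher and 0.0600% lower).

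The nidogens were not called between XY and XX. Nid1, the main nidogen, read 8.89 and 9.63 in pre-granulosa cells, 10.45 and 10.90 in Sertoli cells, 11.06 and 11.21 in ovaries and 11.60 and 11.87 in testes. The XY arrays were above the XX arrays in both kinds of sample, by 1.42 ± 0.29 (adjusted p = 0.0473) and 0.60 ± 0.29 (adjusted p = 0.641) on this probe set. The 3 Nid1 probe sets ran from -0.37 to 1.42 in sorted cells and from 0.29 to 0.60 in gonads. Nid2, the second nidogen, read 4.20 and 4.61 in pre-granulosa cells, 4.81 and 5.10 in Sertoli cells, 9.09 and 8.92 in ovaries and 8.74 and 9.03 in testes, and its sorted-cell arrays lay near or under the background level.

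The proteoglycans and fibronectin showed no called difference between the sexes. Perlecan, encoded by Hspg2, read 8.53 and 7.88 in pre-granulosa cells, 8.14 and 8.24 in Sertoli cells, 9.14 and 9.06 in ovaries and 8.78 and 8.68 in testes. Its sorted-cell groups overlapped (-0.01, adjusted p = 0.994), and both testis arrays lay below both ovary arrays (-0.37, adjusted p = 0.765). Agrin, encoded by Agrn, read 12 and 11.63 in pre-granulosa cells, 11.33 and 10.80 in Sertoli cells, 11.43 and 11.49 in ovaries and 11.41 and 11.27 in testes, with Sertoli arrays below pre-granulosa arrays (-0.75 ± 0.23, adjusted p = 0.139). A dimmer Agrn probe set read 0.12 in sorted cells. Fibronectin, encoded by Fn1, a matrix protein of mesenchyme and plasma that integrins bind at its RGD motif, read 6.34 and 7.21 in pre-granulosa cells, 7.44 and 7.53 in Sertoli cells, 9.48 and 9.45 in ovaries and 9.16 and 9.58 in testes. Sertoli arrays were above pre-granulosa arrays by 0.71 ± 0.30 (adjusted p = 0.285), and the gonad groups overlapped.

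**Figure D2:**
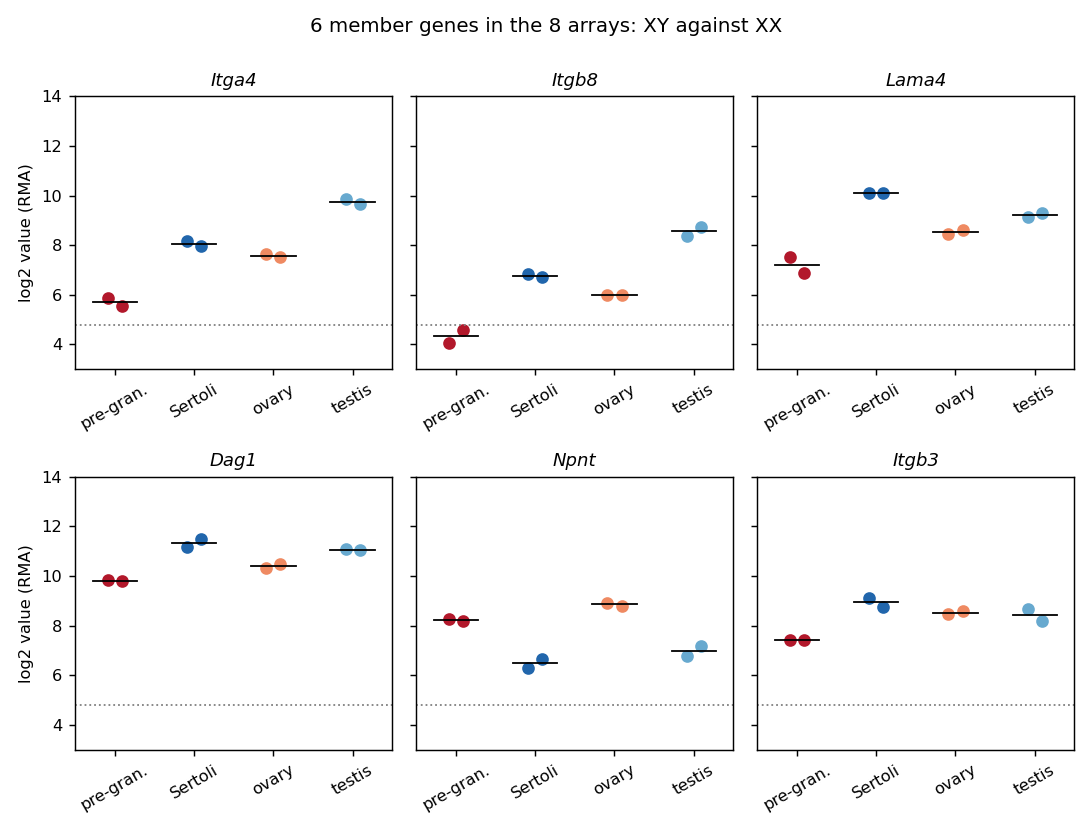
Log2 value on each array (points, 2 per group) with the group mean (bar) for Itga4, Itgb8, Lama4, Dag1, Npnt and Itgb3, with the background level of 4.78 as a dotted line. Itga4 and Itgb8 are higher in XY samples of both kinds, Npnt is lower in XY samples of both kinds, and Lama4 is highest in the 2 Sertoli arrays at 10.12.

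The integrin chains of fibronectin and RGD receptors held both genes called in sorted cells and in gonads: 2 of 9 were higher in Sertoli cells and 2 of 9 higher in testes, with none lower in either. Of all genes, 1.62% were called higher in Sertoli cells and 0.236% higher in testes. Itga4, the alpha chain of receptors for fibronectin and for Vcam1, read 5.86 and 5.57 in pre-granulosa cells, 8.18 and 7.95 in Sertoli cells, 7.63 and 7.54 in ovaries and 9.86 and 9.66 in testes. Each XY group lay clear of its XX counterpart. The difference was 2.35 ± 0.18 in sorted cells (5.09-fold, adjusted p = 0.00216) and 2.17 ± 0.18 in gonads (4.51-fold, adjusted p = 0.00842), and the difference between these was 0.17 ± 0.25 (adjusted p = 0.868). The 4 dimmer Itga4 probe sets were not called: they read between -0.03 and 0.56 in sorted cells and between 0.03 and 2.28 in gonads, and the one at 2.28 ± 0.36 in gonads (adjusted p = 0.0696) read 0.14 ± 0.36 in sorted cells. With the mean of the probe sets in place of the brightest, the sorted-cell difference was 0.66 and was not called (adjusted p = 0.0256).

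Itgb8, the beta chain of a receptor that activates latent TGF-beta, read 4.07 and 4.58 in pre-granulosa cells, 6.82 and 6.70 in Sertoli cells, 5.99 and 5.98 in ovaries and 8.38 and 8.74 in testes. Its XY arrays also lay above the XX arrays in both kinds of sample. The fitted difference was 2.43 ± 0.22 in sorted cells (adjusted p = 0.00383). Both pre-granulosa arrays were under the background level, and against that level Sertoli cells were higher by at least 1.98 log2 units. Testes were higher than ovaries by 2.57 ± 0.22 (5.95-fold, adjusted p = 0.00942), and the difference between the comparisons was -0.14 ± 0.31 (adjusted p = 0.923).

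Markers of other cells also differed between the samples in which Itga4 and Itgb8 were higher. The log2 summed level of 10 macrophage and other leukocyte markers, all measured, was 8.85 and 9.14 in pre-granulosa cells, 10.44 and 12.42 in Sertoli cells, 10.85 and 11.10 in ovaries and 10.55 and 10.78 in testes, with 1 of 10 called higher in Sertoli cells (C1qb, a complement chain). Csf1r, the macrophage growth factor receptor, read 5.38 and 3.65 in pre-granulosa cells and 6.54 and 10.86 in Sertoli cells. In gonads it lay the other way, at 8.35 and 8.15 in ovaries and 6.56 and 6.97 in testes. Ptprc, Adgre1 and Fcer1g of the same list overlapped between the sorted groups. The 4 fetal Leydig markers measured summed to 10.83 and 11.61 in Sertoli cells against 9.81 and 9.31 in pre-granulosa cells, with 0 of 4 called (Cyp17a1, an enzyme of androgen synthesis, read 8.69 and 10.03 against 6.32 and 5.58, adjusted p = 0.0136). In gonads they summed to 13.55 and 13.32 in testes against 9.54 and 9.40 in ovaries, with 3 of 4 called higher, and the 4 interstitial markers measured summed to 13.91 and 13.94 against 12.90 and 13.17, with 0 called. The 5 peritubular and smooth muscle markers summed to 11.12 and 11.03 in testes and 9.87 and 9.95 in ovaries, with 0 called. They did not all run the same way in testis minus ovary. Acta2, Tagln and Actg2 read 1.84, 0.54 and 0.81, while Myh11 and Cnn1 read -0.56 and -0.21. The part of these cells in the differences was not tested. In such bulk samples, fewer cells of a type and less RNA per cell cannot be told apart.

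The other chains of this list were not called between the sexes. Itgb3, a beta chain of receptors for vitronectin and, on platelets, for fibrinogen, was higher in Sertoli arrays by 1.54 ± 0.22 (9.11 and 8.76 against 7.40 and 7.40, adjusted p = 0.0144), and its gonad groups overlapped (8.45 and 8.60 in ovaries, 8.67 and 8.19 in testes). The other Itgb3 probe set read 0.31 in sorted cells. The 6 megakaryocyte and platelet markers summed to 10.41 and 11.02 in Sertoli cells and 8.70 and 9.69 in pre-granulosa cells, with 0 of 6 called, and their part in the Itgb3 difference was not tested. Itgb5, another vitronectin receptor chain, was above pre-granulosa cells in both Sertoli arrays (10.11 and 10.28 against 9.30 and 8.69), by 1.20 ± 0.27 (adjusted p = 0.0625), and was not called on any of its 4 probe sets. Itga5, the alpha chain of the classical fibronectin receptor, was lower in Sertoli arrays (8.04 and 7.59 against 9.55 and 8.57) by -1.25 ± 0.39 (adjusted p = 0.147).

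Itga8 and Itgb1, the chains that pair as the nephronectin receptor, differed widely between replicates. Itga8 read 4.20 and 8.25 in pre-granulosa cells, 7.04 and 7.54 in Sertoli cells, 10.47 and 10.54 in ovaries and 10.52 and 10.59 in testes. The first pre-granulosa array stood at background while the second lay above both Sertoli arrays, so the sorted-cell difference of 1.06 ± 1.17 (adjusted p = 0.719) was within its error. Without the second pre-granulosa array it was 3.09 (adjusted p = 0.00349), and without the first it was -0.96. Itgb1, the beta chain that most matrix-binding alpha chains share, read 6.83 and 7.56 in pre-granulosa cells, 7.71 and 8.77 in Sertoli cells, 8.35 and 8.73 in ovaries and 9.08 and 8.92 in testes. XY arrays were above XX arrays in both kinds of sample, by 1.04 ± 0.40 (adjusted p = 0.236) and 0.46 (adjusted p = 0.883) on this probe set. The 6 Itgb1 probe sets ran from -0.60 to 1.04 in sorted cells and from -0.05 to 1.29 in gonads.

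Itga9, an alpha chain of receptors for tenascin and other ligands, read 6.29 and 6.30 in pre-granulosa cells, 5.89 and 6.19 in Sertoli cells, 6.60 and 6.72 in ovaries and 7.22 and 7.17 in testes. It was lower in Sertoli than in pre-granulosa arrays (-0.25 ± 0.16, adjusted p = 0.474) and higher in testis than in ovary arrays (0.53 ± 0.16, adjusted p = 0.321). On its other 2 probe sets the testis minus ovary difference was larger, at 2.57 ± 0.33 (adjusted p = 0.0358) and 2.10 ± 0.30 (adjusted p = 0.0515), and neither passed the threshold. The mean of its probe sets differed by 1.73 between testes and ovaries and was called (adjusted p = 0.00333). Itgav, the alpha chain that pairs with several beta chains of RGD receptors, read between 12.29 and 12.99 on all arrays, and Itgb6 lay between 3.42 and 3.92, under the background level on every array.

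Laminin-binding chains gave 0 calls of 4 with limma in both comparisons, with 0 of 4 at an unadjusted p under 0.05. Itga6, the alpha chain of the main epithelial laminin receptors, read 12.37 and 13.22 in pre-granulosa cells, 12.85 and 13.01 in Sertoli cells, 12.96 and 12.94 in ovaries and 12.67 and 12.58 in testes. The sorted-cell groups overlapped (0.13 ± 0.28, adjusted p = 0.884), and both testis arrays were slightly below both ovary arrays (-0.32, adjusted p = 0.875). Itga3 (7.98 to 8.52), Itga7 (5.01 to 5.55) and Itgb4 (5.87 to 6.50), the other laminin-binding chains, each stayed within 1 log2 unit over the 8 arrays, as did 15 of the 46 genes in all.

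The collagen-binding chains were likewise not called (0 of 3 with limma in both comparisons, with 1 of 3 and 0 of 3 at an unadjusted p under 0.05). Itga1, a collagen IV receptor chain of smooth muscle and mesenchyme, read 4.21 and 5.53 in pre-granulosa cells, 6.39 and 6.54 in Sertoli cells, 6.34 and 8.05 in ovaries and 8.39 and 8.26 in testes. XY arrays lay above XX arrays in both comparisons, by 1.59 ± 0.63 (adjusted p = 0.243) and 1.14 ± 0.63 (adjusted p = 0.713), while its other probe set read -0.18 and -0.24. Itga2 (4.59 to 5.16) was near background on all arrays, and Itga10 lay between 5.54 and 6.76.

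Integrin chains of blood cells gave 0 calls of 7 with limma in both comparisons, with 0 and 2 of 7 at an unadjusted p under 0.05. Itgam, a myeloid chain, was under the background level on every array (3.40 to 3.74). Itgb2, the beta chain that leukocyte integrins share, read 4.43 to 5.04, Itgax 4.36 to 4.85, Itgal 4.43 to 5.45 and Itgb7 6.11 to 6.67. Itga2b, the platelet chain that pairs with that of Itgb3, read 7.57 and 7.31 in pre-granulosa cells and 8.23 and 7.60 in Sertoli cells. Itgae, the chain of an integrin that binds E-cadherin, was lower in testis than in ovary arrays (4.82 and 5.27 against 6.20 and 6.03, a difference of -1.07, adjusted p = 0.260). A dimmer Itgae probe set read 0.05 in gonads. In the second Sertoli array, in which the summed leukocyte markers stood at 12.42, Itgam read 3.64 and Itgb2 5.04.

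The 5 genes with integrin-like symbols outside the chain lists gave 0 calls with limma between the sexes, with 0 of 5 at an unadjusted p under 0.05. Itgb1bp1, which encodes a protein that binds the tail of the Itgb1 chain, read between 7.97 and 9.33. Itgb2l lay between 5.78 and 6.41 and Itgbl1 between 3.40 and 3.79, the latter under the background level on every array. Itgb3bp, which encodes a centromere protein, read 6.63 and 6.93 in pre-granulosa cells, 7.84 and 6.83 in Sertoli cells, 7.47 and 7.65 in ovaries and 7.98 and 8.05 in testes, with overlap in sorted cells (0.55 ± 0.33, adjusted p = 0.456).

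The calls between the sexes depended on having all arrays. For Sertoli minus pre-granulosa 3 of the 5 calls (Itga4, Itgb8 and Lama4) remained without either pre-granulosa array, with Itga8 called in addition without the second, and 0 remained without any single Sertoli, ovary or testis array. For testis minus ovary both calls remained without either pre-granulosa array and both were lost without any other. The differences of these genes kept their sign throughout.

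**Figure D3:**
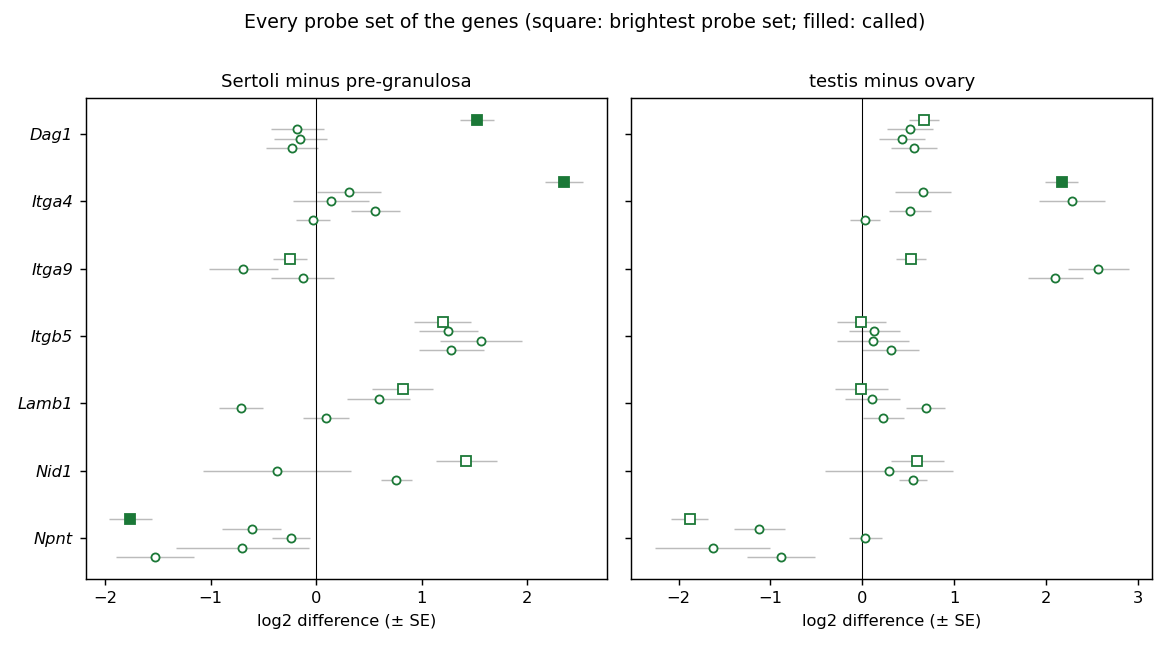
XY minus XX difference (log2) of every probe set of 7 member genes, with squares for the brightest probe set of a gene and filled symbols for called ones. The brightest Dag1 probe set reads 1.52 in sorted cells and the other 3 read between -0.23 and -0.15, while all 5 Npnt probe sets read below 0 there.

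Other genes of the basement membrane were read from lists of related genes. Of 8 collagens of basement membranes, 1 was higher in Sertoli cells (1.62% of all genes) and 0 were called between gonads (0.352% of all genes). In gonads 4 of 8 had an unadjusted p under 0.05, against 11.5% of all genes. The called one was Col18a1, the collagen whose end fragment is endostatin, 8.02-fold higher in sorted cells (adjusted p = 0.00706) and 1.28 ± 0.34 log2 units higher in testes without passing the threshold (adjusted p = 0.252). Col15a1, its close relative, read 2.08 ± 0.63 in sorted cells (adjusted p = 0.136). Among the collagen IV chains, Col4a4 read 2.98 ± 0.71 (adjusted p = 0.206) and Col4a6 -1.54 ± 0.26 (adjusted p = 0.0850) in testis minus ovary.

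Of 15 other basement membrane proteins, 3 were higher and 1 lower in Sertoli cells (1.62% and 1.05% of all genes). In testes 1 was lower (0.115% of all genes). Tinagl1, a matrix protein of epithelial basement membranes, read 6.01 and 6.30 in pre-granulosa cells, 9.99 and 10.36 in Sertoli cells, 6.69 and 6.74 in ovaries and 8.32 and 8.63 in testes, a difference of 4.02 ± 0.20 in sorted cells (16.2-fold, adjusted p = 9.99e-04) and 1.76 ± 0.20 in gonads (adjusted p = 0.0249). The fibulin Fbln2, at 3.04 ± 0.35 (adjusted p = 0.00739), and the calcium-binding Smoc2, at 2.98 ± 0.30 (adjusted p = 0.00525), were the other genes called higher. Egfl6, a protein related to nephronectin and a ligand of the same integrin, was lower in XY samples of both kinds, as were the Npnt values. It stood at 6.81 and 6.58 in pre-granulosa cells, 3.17 and 3.81 in Sertoli cells, 8.11 and 7.48 in ovaries and 4.08 and 4.28 in testes. Every XY array lay under the background level, so XY samples were lower by at least 1.91 log2 units in sorted cells (adjusted p = 0.00404) and at least 3.01 in gonads (adjusted p = 0.00842).

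Intracellular partners and sugar-transfer enzymes were not called. The integrin adhesion complex gave 0 calls of 17 with limma in both comparisons (3 and 2 of 17 at an unadjusted p under 0.05), and Parvb, the actin-binding beta-parvin, was the farthest from 0 at -2.51 ± 0.35 in sorted cells (adjusted p = 0.0140). The dystrophin complex, which joins dystroglycan to actin, gave 0 of 10 in both (3 and 0 of 10 unadjusted), with Sspn, sarcospan, at -2.17 ± 0.49 (adjusted p = 0.0624). The enzymes that build the laminin-binding sugar of dystroglycan gave 0 of 7 in both (2 and 1 of 7 unadjusted), with Pomk at -1.13 ± 0.26 (adjusted p = 0.0701). Other integrin ligands gave 0 of 9 in both (3 and 1 of 9 unadjusted). For all 4 lists of this paragraph, the unadjusted shares over all genes were 22.4% in sorted cells and 11.5% in gonads. Among the ligands, Vcam1, bound by the receptor of Itga4, read 2.27 ± 0.56 higher in testes than in ovaries (adjusted p = 0.222).

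Members were then placed between the supporting cells and the whole gonad. Sertoli cells were compared with testes and pre-granulosa cells with ovaries, and the differences given are less the median of all probe sets (-0.21 and -0.25), whereas p-values are those of the unshifted difference. The sorted-cell and the gonad arrays appear to have been normalized separately, so a shift between these sets and a difference between the kinds of sample cannot be told apart for single genes. These comparisons share arrays with those between the sexes. Relative to testes, 6 of 46 genes were called in Sertoli cells (against 9.70% of all genes), 1 higher (0.989% of all genes) and 5 lower (8.71%). Relative to ovaries, 5 of 46 were called in pre-granulosa cells (10.9%, against 9.62% of all genes), all 5 lower (9.12% of all genes were called lower and 0.506% higher). The medians of the 46 genes were 0.04 and -0.15, beside -0.08 and -0.14 over all genes, and the groups did not overlap for 36 and 34 of the 46 genes (73.4% and 67.8% of all genes). Of all genes called, 10.2% were higher in Sertoli cells than in testes as deposited, 35.9% after quantile normalization over all arrays and 36.0% after median centring, and for pre-granulosa cells against ovaries these shares were 5.25%, 25.4% and 23.9%.

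Nid2 had the lowest difference of the 46 genes on both sides. From the array values above, all 4 sorted-cell arrays (4.20 to 5.10) lay far below all 4 gonad arrays (8.74 to 9.09), with little difference between ovaries and testes. Sertoli cells read -3.72 ± 0.21 against testes (13.2-fold lower, adjusted p = 5.78e-04). Pre-granulosa cells read -4.34 ± 0.21 against ovaries (adjusted p = 5.30e-04). Both pre-granulosa arrays were under the background level, and against that level they were lower by at least 4.22 log2 units with the median not subtracted. Nid2 was called on both sides under both other scalings as well. Nid1 was called lower in pre-granulosa cells than in ovaries (-1.62 ± 0.29, adjusted p = 0.00822) and read -0.85 ± 0.29 in Sertoli cells against testes (adjusted p = 0.0448). Its probe sets disagreed: 2 of 3 were called lower and the third read 2.17 ± 0.70 (adjusted p = 0.0958), so that their mean gave 0.04 in place of -1.62. The Nid1 call was also lost under both other scalings.

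On its brightest probe set, fibronectin was likewise lower in the supporting cells on both sides. Fn1 read -1.67 ± 0.30 in Sertoli cells against testes (3.19-fold lower, adjusted p = 0.00896) and -2.43 ± 0.30 in pre-granulosa cells against ovaries (5.39-fold lower, adjusted p = 0.00338), with all sorted-cell arrays at or below 7.53 and all gonad arrays at or above 9.16. The pre-granulosa call held under both other scalings and the Sertoli call under neither. A dimmer Fn1 probe set, from 4.41 to 6.61, read 0.64 in Sertoli cells against testes and -0.61 in pre-granulosa cells against ovaries. It was called on neither side, and the mean of both probe sets was not called either (-0.44 and -1.43).

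Itga4 and Itgb8, higher in XY samples, were also lower in the supporting cells than in the gonad of the same sex. Itga4 read -1.48 ± 0.18 in Sertoli cells against testes (2.80-fold lower, adjusted p = 0.00248) and -1.62 ± 0.18 in pre-granulosa cells against ovaries (3.07-fold lower, adjusted p = 0.00215). Itgb8 read -1.58 ± 0.22 against testes (adjusted p = 0.00383) and -1.40 ± 0.22 against ovaries (adjusted p = 0.00534). Since its pre-granulosa arrays were under background, the latter is at least 1.20 log2 units lower with the median not subtracted. After quantile normalization over all arrays Itga4 kept its call against ovaries alone, and Itgb8 lost both. After median centring Itga4 kept both calls, and Itgb8 again lost both.

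**Figure D4:**
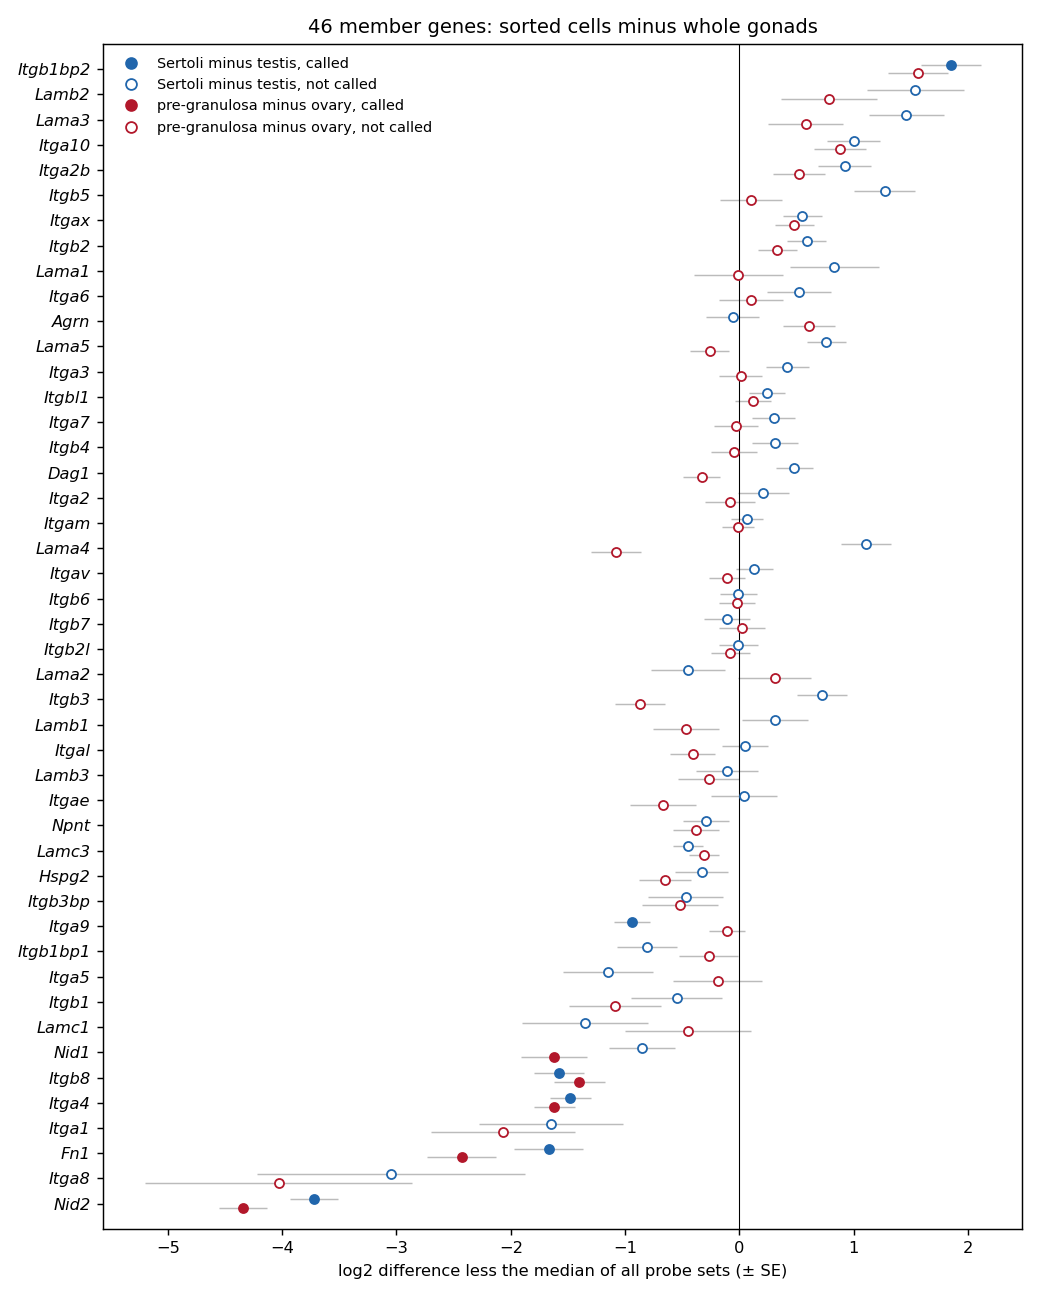
Difference between supporting cells and the gonad of the same sex (log2, less the median of all probe sets, with model standard errors) for member genes, Sertoli minus testis in blue and pre-granulosa minus ovary in red, filled where called. Nid2 lies lowest on both sides at -3.72 and -4.34, and Itgb1bp2 lies highest at 1.85 and 1.56.

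Receptor chains of mesenchyme read low in supporting cells as well. The Itga8 arrays above 10 were the 4 gonad arrays, and no sorted-cell array exceeded 8.25. Its differences were -3.05 ± 1.17 against testes (adjusted p = 0.0920) and -4.03 ± 1.17 against ovaries (adjusted p = 0.0433). A dimmer Itga8 probe set was called lower on both sides (adjusted p = 0.00700 and 0.00425), with sorted-cell arrays from 3.31 to 3.46 and gonad arrays from 4.44 to 4.80, all at or near background. Itga1 read -1.65 (adjusted p = 0.0789) and -2.07 ± 0.63 (adjusted p = 0.0424) on its brighter probe set. Its other probe set was called lower on both sides (adjusted p = 0.00287 and 0.00288), with sorted-cell arrays at background (4.12 to 4.46) and gonad arrays from 5.76 to 6.26.

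Sertoli cells were separated from testes by Itga9 on every probe set and by some other members on certain probe sets alone. Itga9 was lower in Sertoli cells on all 3 of its probe sets, by -0.94 ± 0.16 on the brightest (adjusted p = 0.00539) and by -3.70 ± 0.33 (adjusted p = 0.00152) on another, while pre-granulosa cells were called on none. The call on the brightest was lost under both other scalings. Called lower in Sertoli cells were 1 of 6 Itgb1 probe sets (adjusted p = 0.00304), 1 of 4 of Lamb1 (-2.05 ± 0.21, adjusted p = 0.00195), 1 of 5 of Itgb3bp (adjusted p = 0.00945), 1 dimmer one of Itga4 (adjusted p = 0.00252) and 1 of 4 of Dag1 (-1.42 ± 0.25, adjusted p = 0.00808). Of all probe sets, 8.64% were called in that comparison (1.24% higher and 7.40% lower), and 8.28% in pre-granulosa cells against ovaries (1.28% higher and 7.00% lower). The brightest Itgb1, Lamb1 and Dag1 probe sets were not called, at -0.55 (adjusted p = 0.219) for Itgb1 and 0.48 ± 0.16 (adjusted p = 0.279) for Dag1. The excess of 3′ over 5′ actin signal was 2.17 and 2.51 in Sertoli cells and 1.57 and 1.96 in testes. For Gapdh it was 1.94 and 2.69 in Sertoli cells and 0.72 and 0.95 in testes. The part of this excess in the disagreement of probe sets was not tested.

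**Figure D5:**
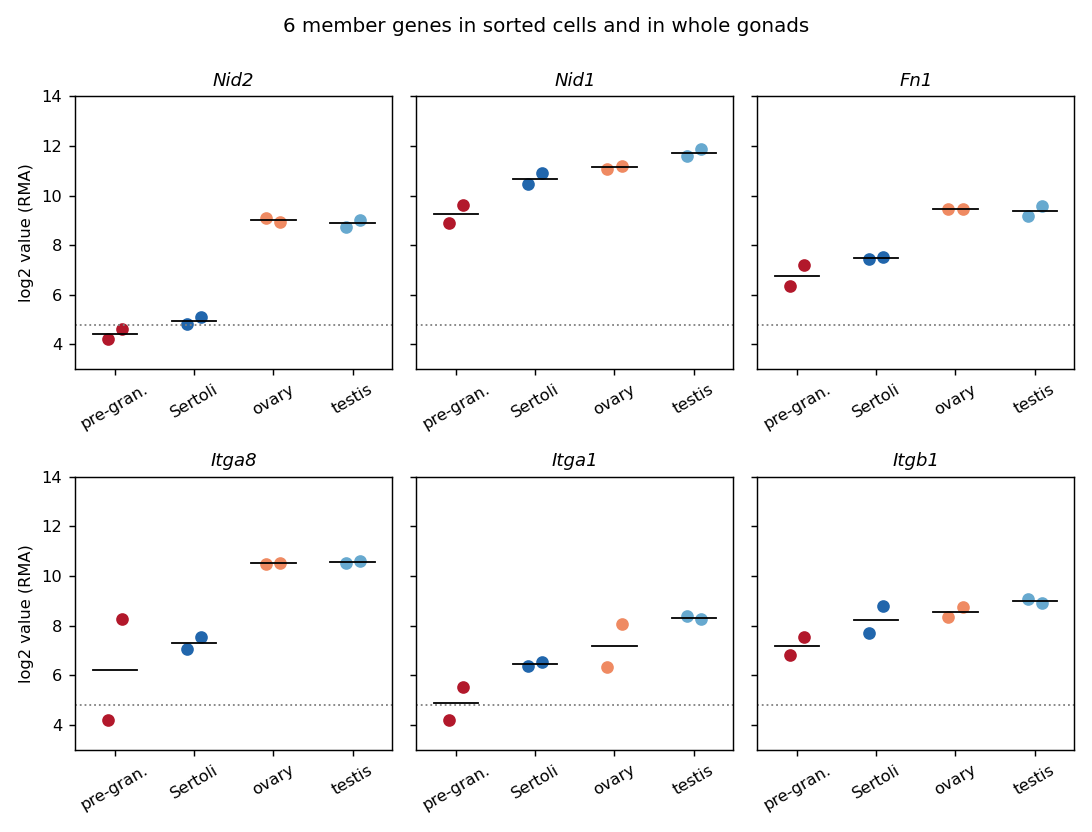
Log2 value on each array (points, 2 per group) with the group mean (bar) for Nid2, Nid1, Fn1, Itga8, Itga1 and Itgb1, with the background level of 4.78 as a dotted line. Nid2 lies between 4.20 and 5.10 in the 4 sorted-cell arrays and between 8.74 and 9.09 in the 4 gonad arrays, and the 2 pre-granulosa arrays of Itga8 stand apart at 4.20 and 8.25.

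Itgb1bp2 was the one member gene called higher in supporting cells. It encodes melusin, a muscle protein that binds the tail of the Itgb1 chain, and read 6.23 and 6.14 in pre-granulosa cells, 6.51 and 6.66 in Sertoli cells, 5.25 and 4.51 in ovaries and 4.87 and 5.03 in testes. All sorted-cell arrays lay above all gonad arrays. The difference was 1.85 ± 0.26 against testes (3.60-fold higher, adjusted p = 0.00822) and 1.56 ± 0.26 against ovaries (adjusted p = 0.0163). Lama4 read 1.11 ± 0.22 against testes (adjusted p = 0.0346) and -1.08 ± 0.22 against ovaries (adjusted p = 0.0105), and Lamb2 1.54 ± 0.42 against testes (adjusted p = 0.0644).

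Markers of some other cell types, but not of all, were lower in the sorted samples in which Nid2, Fn1, Itga8 and Itga1 read low. The 4 interstitial markers measured summed to a log2 level of 8.33 to 10.21 in sorted cells and 12.90 to 13.94 in gonads. Pdgfra, the mesenchymal growth factor receptor, read 6.55 to 7.64 in sorted cells and 11.17 to 12.41 in gonads. Nr2f2, an interstitial transcription factor, read 5.80 in the first pre-granulosa array and 9.82 in the second, the arrays in which Itga8 read 4.20 and 8.25. The other interstitial markers measured did not differ in this way between these arrays. Pdgfra read 7.50 and 7.64 there, Tcf21 5.43 and 5.28, and Gli1 5.39 and 5.28. The 8 endothelial markers summed to 8.18 to 9.42 in sorted cells and 10.96 to 11.14 in gonads, the 6 germ cell markers to 7.28 to 8.64 and 12.64 to 12.90, and the 5 coelomic and mesonephric markers measured to 7.01 to 8.50 and 10.35 to 10.83. At or under background in all arrays of the group were 3 germ cell, 2 endothelial and 3 coelomic markers in pre-granulosa cells and 3, 1 and 1 in Sertoli cells. The 6 megakaryocyte and platelet markers were higher in Sertoli cells (10.41 and 11.02) than in testes (8.98 and 9.08). In pre-granulosa cells they summed to 8.70 and 9.69 against 8.19 and 8.84 in ovaries. Leukocyte markers were lower in pre-granulosa cells than in ovaries, but not in Sertoli cells (10.44 and 12.42) than in testes (10.55 and 10.78). Fetal Leydig markers overlapped between pre-granulosa cells and ovaries. The part of these cells in the gene differences was not tested.

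The calls against the gonad varied with the arrays used. Without either pre-granulosa array the 6 calls of Sertoli minus testis became 10, without either ovary array 3, without either Sertoli array 1 and without either testis array 0. For pre-granulosa minus ovary there were 6 calls without the first pre-granulosa array, where Itgb8 and Nid1 lost theirs and Hspg2, Itga8 and Lama4 gained one, and 7 without the second, where Itga8 and Lamb2 were added to the 5. The 5 became 3 without either Sertoli array and 1 without any single ovary or testis array.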

How the data were processed

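RNA of each sample was hybridized to 1 Affymetrix mouse genome array; per the labels, about 20 ng of total RNA gave about 2.5 µg of labelled cDNA. The authors deposited log2 values. Per the submitters' processing notes these were made with RMA (version not given in the sources used here). For the authors' own test, not used here, R/maanova at a false discovery rate of 1% is named. Ranked values differed by at most 0.18 within the sorted-cell arrays and 0.15 within the gonad arrays, with a median difference of 0.38 between these sets, so the sets appear to have been normalized separately, which no label records.

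The table held 45101 probe sets; 64 controls were left out, 45037 were tested and 34945 had a single gene symbol. A gene is read from its brightest probe set by mean. Differences were tested two-sided with limma 3.58.1 in R 4.3.3 (lmFit, 1 mean per group over all 8 arrays, eBayes, 4 residual degrees of freedom), Benjamini-Hochberg adjusted over all probe sets and called at 0.01. The difference between the comparisons was tested in the same fit. The fit was tested on simulated data.

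Members and gene lists were chosen with earlier results of these data known. The value of every array is given for 23 genes: a fixed set of laminins, linkers and the chains Itga6 and Itgb1, and every member gene with a called probe set (15 genes). Other members are given by range or group values; Itgb3, Itgb5, Itga5, Lama3, Itga2b and Itgae were given more values after these were seen. From related lists, up to 4 called and 2 other genes were taken by size. All 46 symbols matched a RefSeq gene table (GRCm38.p6), used for names, with 0 changed; promoters come from RefSeq on the same build. No build is stated for the array values.

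Alternatives were other scalings, a filter on dim probe sets, other moderation, a weight per group, a replicate block, fewer arrays, another threshold and the mean of a gene's probe sets. The number of arrays limits the precision.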

Additional observations from a re-analysis of the deposited data

Results flagged for a closer look

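The XY minus XX difference of 2 genes ran in opposite directions in sorted cells and in gonads, with no overlap between the groups in either. For Itga9 it was -0.25 in sorted cells and 0.53 in gonads, and the difference of these, -0.78, did not pass limma's test (adjusted p = 0.252). For Lama5 it was 0.62 and -0.45, and the difference, 1.07, did not pass it either (adjusted p = 0.174). Groups did not overlap for 43.3% of all genes in sorted cells and 55.2% in gonads. The share of all genes that meets both with opposite directions was not counted.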

How the results depend on the processing

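For Sertoli minus pre-granulosa the 5 member genes called became 0 with no moderation of the variance or with only the arrays compared, 2 with a weight per group or the mean of the probe sets of a gene, 3 with the replicate block, and 8 at a threshold of 0.05; other scalings, the filter on dim probe sets, the intensity trend and robust moderation gave 4 or 5. For testis minus ovary the 2 became 0 with quantile normalization over all arrays, with the intensity trend, with no moderation, with the replicate block and with only the arrays compared, and 1 with robust moderation; Npnt was called in addition with a weight per group and at a threshold of 0.05, and Itga9 with the mean of the probe sets, for 3 calls each. For Sertoli minus testis the 6 became 2 with quantile normalization over all arrays and with no moderation, 3 with median centring and with the replicate block, and 13 at a threshold of 0.05. For pre-granulosa minus ovary the 5 became 3 with quantile normalization over all arrays, with median centring and with a weight per group, 2 with no moderation, 0 with only the arrays compared, and 13 at a threshold of 0.05; the replicate block gave 4. Leaving out 1 array at a time gave 0 to 4, 0 to 2, 0 to 10 and 1 to 7 calls for the comparisons in this order. A group left with 1 array was assumed to vary like the others. The difference between the XY minus XX comparisons gave 0 calls in every alternative run; the fit with only the arrays compared was not run for it. Apart from what the alternatives themselves remove (arrays, moderation), the cause of these changes was not tested. The number of all genes called moved too, from 485 to 0 for Sertoli minus pre-granulosa with only the arrays compared, and from 64 to 13 for testis minus ovary with the replicate block. Same-numbered arrays did not deviate together (correlations of their deviations from -0.16 to 0.05), so the numbers give no pairing. With the mean of the probe sets, Nid1 in pre-granulosa minus ovary turned from -1.62 to 0.04 (adjusted p = 0.307). Of 1886 pairs of a gene and an alternative that were not called either way, 57 changed sign, over 21 genes. Values at or under 4.78 cannot be told from background.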
